A study of Homo sapiens with 4 samples.

Results

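The genes described here make and maintain the protein-folding environment of the endoplasmic reticulum (ER): the sensors and transcription factors of the unfolded protein response, the resident chaperones, the thiol oxidoreductases, the ER-associated degradation machinery and the Sec61 translocon. They were taken as 40 gene symbols, and all 40 were found among the 16376 genes of the authors' deposited table. The table compares HCT116, an established human colon cancer cell line, treated with hydrogen peroxide (H2O2, an oxidant that crosses membranes) with untreated HCT116 cells labelled Control. Each group has 2 RNA-seq libraries made from poly(A)-selected RNA, and no other treatment or genotype is labelled for either group. H2O2 dose and exposure time are not labelled, nor is it stated whether replicates were grown separately. The p-values therefore reflect the spread among these libraries, possibly a technical one. The table holds group means, and the whole read counts of the 4 libraries were recovered from them. Below, the libraries of a group are called deeper and shallower, after their total counts. Its header names the groups only by letters. The earlier letter was read as Control because Control is named before H2O2 in the table's title, and every direction rests on that reading.

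Secreted and membrane proteins enter the ER through the Sec61 channel and fold there with the help of chaperones such as BiP (the product of HSPA5) and of disulfide isomerases, which use an oxidizing thiol chemistry. When unfolded proteins accumulate, the membrane sensors IRE1 (encoded by ERN1), ATF6 and PERK start the unfolded protein response. IRE1 splices XBP1 mRNA into the form that encodes an active transcription factor, ATF6 is cut by the Golgi proteases encoded by MBTPS1 and MBTPS2, and both factors act on ER stress response elements in promoters of folding genes. Proteins that fail to fold are moved back to the cytosol and degraded, with the ubiquitin ligase encoded by SYVN1 and its partner SEL1L at the centre of the channel.

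The ER stress response elements named above were found in promoters of some members. Because the members were chosen as genes of this response, a high share is no independent result. The ER stress response element (ERSE) was searched as CCAAT and CCACG with 9 bases of any kind between them, and its shorter form (ERSE-II) as ATTGG and CCACG with 1 base between them, on both strands of the 250 bases before each gene's RefSeq start (GRCh38.p14). A promoter was found for 37 of the 40 members, all but FKBP14, PDIA3 and DERL1. ERSE occurred in 8 of the 37 (21.6%) and ERSE-II in 3 (8.11%), so that 11 (29.7%) held at least 1 of these elements. Among all 35116 promoters the shares were 0.0740% for ERSE and 0.0513% for ERSE-II. By gene they were 0.0916% and 0.0659%, and 43 of 27305 genes held either, the 11 members included. ERSE was present for XBP1, HSPA5, HSP90B1, CALR, CANX, CRELD2, PDIA6 and ERO1LB, and ERSE-II for HYOU1, SDF2L1 and HERPUD1. A match is a description of the letters, and binding was not measured.

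Elements of the chaperone genes HSPA5, HSP90B1, CALR, SDF2L1 and HYOU1 are given, with those of XBP1, PDIA6 and the degradation gene HERPUD1. Those of CANX, CRELD2 and ERO1LB are not shown. The elements given read 5′ to 3′ in the direction of each gene, with the fixed letters of each element in capitals. They show how the same short element recurs at different distances and in both orientations.
HSPA5: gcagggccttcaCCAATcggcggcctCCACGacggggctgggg
XBP1: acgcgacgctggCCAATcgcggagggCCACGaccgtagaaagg
HSP90B1 distal: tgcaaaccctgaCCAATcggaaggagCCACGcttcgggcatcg
HSP90B1 proximal: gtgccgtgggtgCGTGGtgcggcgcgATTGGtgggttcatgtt
CALR: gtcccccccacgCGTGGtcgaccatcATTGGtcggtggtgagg
PDIA6: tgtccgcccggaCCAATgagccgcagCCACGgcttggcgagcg
HERPUD1: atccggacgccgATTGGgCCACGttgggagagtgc
SDF2L1: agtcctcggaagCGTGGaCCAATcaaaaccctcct
HYOU1 distal: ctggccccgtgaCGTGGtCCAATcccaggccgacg
The HSPA5 window lies at chr9:125241379-125241421 on the minus strand (GRCh38.p14), and its element spans 66 to 48 bases before the start. For XBP1 the window is chr22:28800591-28800633 on the minus strand and the element spans 52 to 34 bases before the start. The HSP90B1 windows are chr12:103930204-103930246 and chr12:103930309-103930351 on the plus strand, and the proximal element is the reverse complement of the written form. Those of CALR (chr19:12938372-12938414, plus strand), SDF2L1 (chr22:21642102-21642136, plus strand) and HYOU1 (chr11:119057368-119057402, minus strand) are also reverse complements. PDIA6 (chr2:10812841-10812883, minus strand) and HERPUD1 (chr16:56932013-56932047, plus strand) hold the written form. The HYOU1 promoter has a further ERSE-II at 79 to 69 bases before its start. The core of the XBP1 and ATF6 response element, TGACGTGG, overlaps the distal ERSE-II of HYOU1 and was found in 0.612% of promoters.

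The members differed widely in level. Per kilobase of exonic length, the chaperone gene CALR (calreticulin) stood highest at 4316 normalized counts in Control, followed by P4HB, the classical protein disulfide isomerase, at 3241, PDIA4 at 1793 and CANX (calnexin) at 1332. MANF, a secreted and ER-resident survival factor, had 548 and HSPA5 573 normalized counts per kilobase in Control. The sensors ATF6 and ERN1 were far lower on the same scale, at 68.3 and 31.3. ATF6B, of the same role group, had 204, above CRELD2 of the chaperones and foldases at 116. CALR and P4HB thus stood above these sensors by more than an order of magnitude, while the lowest foldase, FKBP14, had 52.8 in Control and lay among the regulators. TXNDC5 was lowest at 3.39, an uncertain value because 89.4% of the 75-base words of its longest transcript also occur in the read-through gene BLOC1S5-TXNDC5. Other sequence sharing was smaller, at 11.7% for PDIA3 (with the pseudogene PDIA3P1) and 8.43% for ATF6B. The exons of ATP6V1C2, on the opposite strand, overlap 25.2% of PDIA6's exonic bases, and whether reads were counted by strand is not given in the sources used here.

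**Figure D1:**
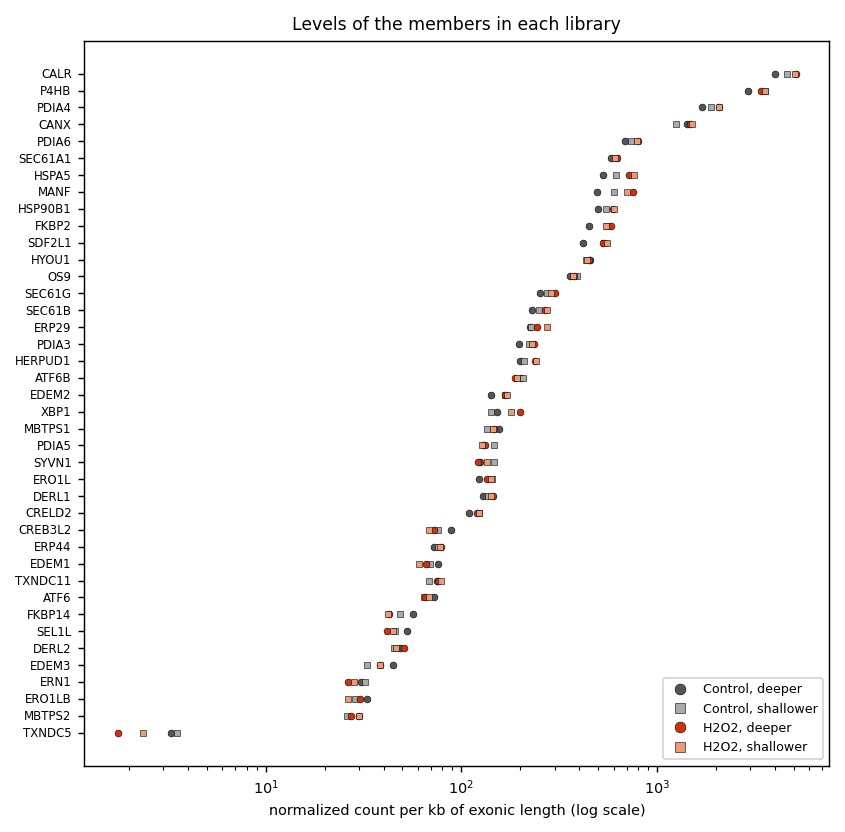
Normalized count per kilobase of exonic length (log axis) for each of the 40 members, ordered by the Control mean, with 1 point per library (grey Control, red H2O2, circles deeper, squares shallower). CALR is at the top with 4316 in Control and TXNDC5 at the bottom with 3.39, and the 4 points of a gene mostly lie close together.

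With H2O2, 1 of the 40 ER genes passed the test. MANF was the 1 member past an adjusted p of 0.05 by the authors' deposited table, 1.33-fold higher, and no member was lower, while 39 did not pass. Over all genes 7.19% were called, made up of 2.58% higher and 4.62% lower, by the authors' deposited table. The 1 of 40 members called higher is 2.50%, near the 2.58% of all genes, while 0 members lower stands against 4.62%. At an unadjusted p under 0.05 the authors' deposited table gave 4 members, MANF, HSPA5, XBP1 and FKBP14, against 19.6% of all genes. At an adjusted p under 0.1 the authors' deposited table gave 3 of the 40 as higher and 0 as lower, against 3.57% and 6.51% of all genes. limma on the recovered libraries called 0 of the 40 members at an adjusted p under 0.05, and 4 at an unadjusted p under 0.05, against 4.1% (1.52% higher and 2.58% lower) and 20.2% of all genes. The limma count rested on which control was kept. Without the deeper control 4 members were called higher and 0 lower, against 3.71% and 4.81% of all genes, the fourth beside MANF, HSPA5 and XBP1 being CANX (adjusted p = 0.00928 in limma). Without the shallower control 11 were higher and 2 lower, against 10.6% and 11.6% of all genes. These were MANF, HSPA5, XBP1, CALR, HSP90B1, SDF2L1, FKBP2, P4HB, PDIA4, PDIA6 and HERPUD1 as higher, and CREB3L2 (adjusted p = 0.0127) and FKBP14 (0.0259) as lower in limma. Without the deeper H2O2 library no member was called, against 0.635% higher and 1.1% lower of all genes, and without the shallower none either, against 1.29% and 1.84%. In each of these fits the lone library of a group was assumed to vary like the other group. As these are bulk libraries, a change in the number of cells of a kind and a change in RNA per cell cannot be told apart.

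Over all 40 members, MANF included, the values leaned upward. The log2 fold change was above 0 for 27 of the 40, against 8191 of all 16376 genes, by the authors' deposited table. The median of the members was 0.07 by the authors' deposited table, against 0.00 for all genes. In 17 members (42.5%) both H2O2 libraries stood above both controls, against 26.3% of all genes and 27.4% of those with a mean of at least 100. In 7 members (17.5%) both H2O2 libraries stood below both controls, against 25.6% of all genes and 26.4% of those with a mean of at least 100. The lean was not particular to the members, as the 125 other ER genes described below leaned upward too. Of these 125, 86 had a log2 fold change above 0, with a median of 0.08, by the authors' deposited table. Both H2O2 libraries stood above both controls in 50 of the 125 and below in 16. Together the 40 members took 1.04% and 1.12% of the reads of the deeper and shallower control and 1.18% of each H2O2 library. This share is weighted to the most abundant members. P4HB had 16053 and 18495 reads in the deeper and shallower control and 18751 and 18223 in the H2O2 libraries. CALR had 11402 and 12178, then 14354 and 13233. The controls differed from each other by more than the groups did for 22 members (55.0%), against 50.8% of all genes. The shallower control was above the deeper for 26 members, with a median difference of 0.08 on the log2 scale, against 0.01 for all genes. The median fold change of the members was 0.05 without the deeper control and 0.10 without the shallower on the log2 scale. The part of the difference between the controls in the upward lean was not tested.

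**Figure D2:**
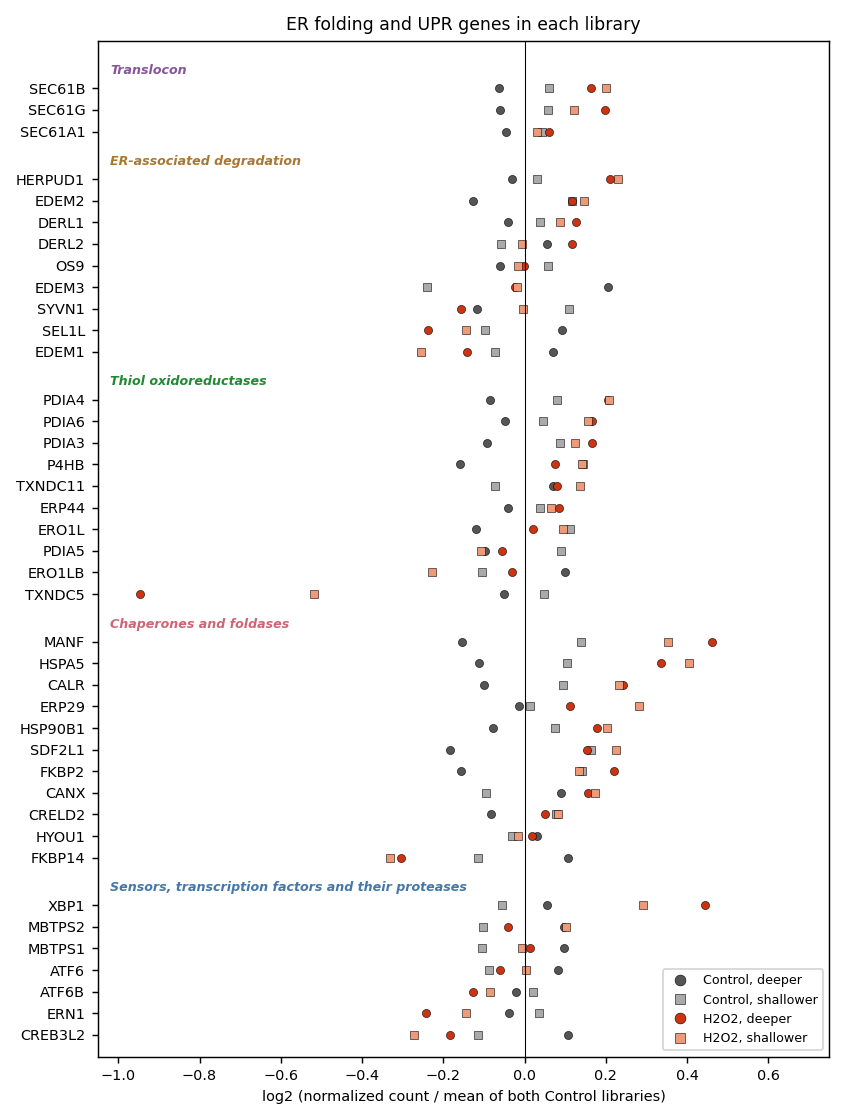
Each member's normalized count in each library relative to the mean of both controls, on a log2 axis, grouped by role (grey Control, red H2O2, circles deeper, squares shallower). MANF, HSPA5 and XBP1 have both H2O2 points to the right of both controls, while FKBP14 and TXNDC5 have both to the left.

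**Figure D3:**
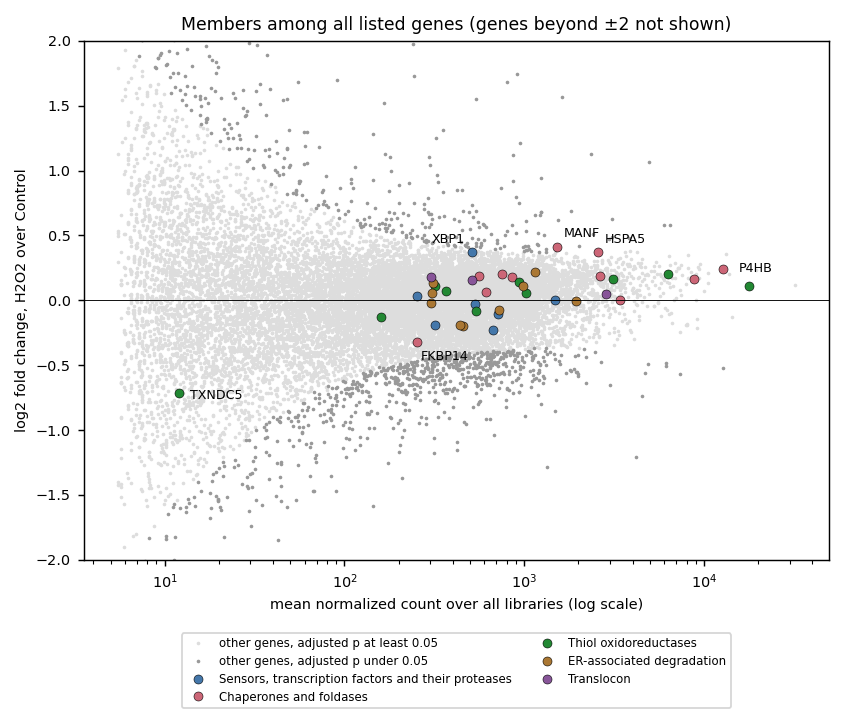
Log2 fold change by the authors' deposited table against mean normalized count (log axis) for the listed genes within 2 of 0, with the members coloured by role and darker grey for other genes with adjusted p under 0.05. The members lie within 0.41 of 0 apart from TXNDC5, which has a mean near the low end of the table.

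Among the 7 sensors, transcription factors and their processing proteases, none passed, against 7.19% of all genes. Their median log2 fold change was -0.03 by the authors' deposited table. XBP1 had 461 and 427 normalized counts in the deeper and shallower control and 604 and 543 with H2O2. Both H2O2 libraries were above both controls, a log2 difference of 0.37 ± 0.12 (limma, SE, n = 2 per group). Its adjusted p was 0.0865 by the authors' deposited table and 0.0967 in limma, and these gene counts do not separate spliced from unspliced XBP1 mRNA. The difference of XBP1 was 0.42 without the deeper control and 0.31 without the shallower in limma, fits whose spread comes from the H2O2 libraries alone. ERN1, whose product splices XBP1, had 332 and 349 normalized counts in Control and 288 and 308 with H2O2. CREB3L2, a membrane-bound transcription factor of the ATF6-like CREB3 family, had 776 and 666 in Control and 635 and 597 with H2O2, and neither gene passed (adjusted p = 0.517 and 0.349 by the authors' deposited table). ATF6 and ATF6B had log2 fold changes of -0.03 and -0.11 by the authors' deposited table, and the proteases MBTPS1 and MBTPS2 had 0.00 and 0.03. Apart from XBP1, the regulators therefore showed no member with both H2O2 libraries above both controls, and ERN1, ATF6B and CREB3L2 had both below. These are 14.3% above and 42.9% below, against 26.3% and 25.6% of all genes.

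The only member that passed was among the chaperones and foldases. Of 11 genes, MANF passed and 10 did not, 10 had a log2 fold change above 0, and the median was 0.19 by the authors' deposited table. MANF had 1174 and 1438 normalized counts in Control and 1797 and 1668 with H2O2. The gap between its controls, 0.29 on the log2 scale, was smaller than its difference of 0.41 ± 0.12 between groups (SE, limma). The authors' deposited table gives MANF an adjusted p of 0.0236 and limma gives 0.0635, with 0.545 without the deeper and 0.222 without the shallower H2O2 library. Leaving out a control instead gave 0.27 (without the deeper) and 0.56 (without the shallower) on the log2 scale in limma, fits whose spread comes from the H2O2 libraries alone. After subtraction of the trend of fold change on exonic length, its log2 fold change was 0.27.

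HSPA5, the main HSP70 chaperone of the ER lumen and a standard reporter of the unfolded protein response, had 2069 and 2408 normalized counts in Control and 2823 and 2963 with H2O2. The groups did not overlap, and the difference was 0.37 ± 0.11 on the log2 scale (SE, limma). It fell just short of the threshold, with an adjusted p of 0.0568 by the authors' deposited table and 0.0771 in limma. Leaving out the deeper control gave 0.26 and leaving out the shallower gave 0.48 on the log2 scale in limma. The spread in these fits comes from the H2O2 libraries alone. For HSPA5 those differed by 0.07 on the log2 scale, against 0.22 between the controls. HSP90B1, the ER form of HSP90, went from 2332 and 2589.8 normalized counts to 2786 and 2830.3. CALR and CANX, lectin chaperones that hold glycoproteins, had 10929 and 12501, and 8836 and 7769.5, in Control and 13856 and 13764, and 9244 and 9356, with H2O2. In all 3 the H2O2 libraries were above both controls, at log2 differences of 0.19 ± 0.11, 0.24 ± 0.13 and 0.17 ± 0.12 (SE, limma), and none passed. For CANX the gap between the controls (-0.19, shallower minus deeper) was larger in size than the group difference, but not for HSP90B1 or CALR. ERP29, a thioredoxin-fold chaperone without the usual active site, stood at 689 and 702 in Control and 752 and 846 with H2O2.

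For 4 further foldases the groups overlapped. SDF2L1, a component of BiP complexes, had 462 and 587 normalized counts in Control and 583 and 613 with H2O2, so that the shallower control reached the H2O2 range. The prolyl isomerase gene FKBP2 overlapped in the same way, with 722 and 888 in Control and 937 and 883 with H2O2. CRELD2, an ER stress-inducible disulfide isomerase-like protein, had a difference of 0.07 ± 0.11 on the log2 scale (SE, limma). HYOU1, the nucleotide exchange factor of BiP, stood at 3480.4 and 3334 in Control and 3451 and 3368 with H2O2, a difference of 0.00 ± 0.11 (SE, limma). FKBP14, a collagen-directed prolyl isomerase, was the 1 foldase with both H2O2 libraries below both controls, at 303 and 259.7 against 228 and 224, and did not pass (adjusted p = 0.237 by the authors' deposited table). Values of known stress-inducible chaperones thus ranged from 0.00 for HYOU1 to 0.41 for MANF.

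Of the 10 thiol oxidoreductases none passed, against 7.19% of all genes, and the median log2 fold change was 0.09 by the authors' deposited table. PDIA4, a disulfide isomerase with several thioredoxin domains, had 5539 and 6213 normalized counts in Control and 6776 and 6784 with H2O2. PDIA6 had 2829 and 3017, then 3280.1 and 3258, and PDIA3, which works with calreticulin and calnexin, had 834 and 944, then 997 and 968. In all 3 the groups did not overlap, and the differences were 0.21 ± 0.12, 0.16 ± 0.11 and 0.15 ± 0.11 on the log2 scale (SE, limma). The gap between the controls was larger than the group difference for PDIA3 (0.18), but not for PDIA4 or PDIA6. P4HB ran from 15387 in the deeper to 18985 in the shallower control and stood at 18100.3 and 18955 with H2O2, so the controls alone spanned the H2O2 values. ERO1L and ERO1LB encode the oxidases that regenerate disulfide isomerases and release H2O2 in the ER as they do so. ERO1L had 924 and 1085 normalized counts in Control and 1019 and 1072 with H2O2, and ERO1LB had 177 and 154, then 162 and 141. Both overlapped between groups, with differences of 0.06 ± 0.11 and -0.12 ± 0.16 (SE, limma). ERP44, which retains ERO1 in the ER, and TXNDC11, a thioredoxin-domain protein, had log2 fold changes of 0.08 and 0.11 and PDIA5 had -0.08 by the authors' deposited table. TXNDC5 rested on 15 and 15 reads in Control and 8 and 10 with H2O2, too few to place its difference of -0.67 ± 0.40 (SE, limma).

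ER-associated degradation genes lay on both sides of the controls. None of 9 passed, against 7.19% of all genes. Both H2O2 libraries stood above both controls in 3 (33.3%) and below in 2 (22.2%), near the 26.3% and 25.6% of all genes. Of the log2 fold changes 4 were above and 5 below 0, and the median was -0.01 by the authors' deposited table. HERPUD1, a membrane protein of the degradation complex and a known ER stress target, had the largest log2 fold change of the 9, with 1032 and 1079 normalized counts in Control and 1220.1 and 1239 with H2O2. Its groups did not overlap and the difference was 0.22 ± 0.11 on the log2 scale (SE, limma, adjusted p = 0.257). SEL1L, the adaptor of the SYVN1 ligase, had 501 and 439, then 399 and 425. EDEM1, a mannosidase-like lectin that marks glycoproteins for removal, had 513 and 465, then 443 and 409.8. These were the 2 degradation genes with both H2O2 libraries below both controls, at -0.19 ± 0.12 and -0.20 ± 0.12 (SE, limma). SYVN1 itself, the lectin gene OS9, EDEM3 and the channel gene DERL2 overlapped between groups, with log2 fold changes of -0.08, -0.01, -0.02 and 0.06 by the authors' deposited table. DERL1 and EDEM2 had 0.11 and 0.13 by the authors' deposited table, and for EDEM2 the shallower control and the deeper H2O2 library both stood at 322 normalized counts. The 3 genes of the Sec61 channel did not pass either. SEC61A1, its pore subunit, had 2721 and 2895, then 2926 and 2868 normalized counts, with overlapping groups. SEC61B and SEC61G, the small subunits, had log2 fold changes of 0.18 and 0.16 by the authors' deposited table, with groups that did not overlap, and both were 0.00 after subtraction of the trend on exonic length.

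Exonic length moved with the direction of these small differences. Median exonic length was 3908 bases in the 17 members with both H2O2 libraries above both controls and 6758 bases in the 7 with both below, against 4951 bases over all genes with a length. Subtracting the length trend of all genes left the median of the 40 members at 0.07 and took that of the chaperones and foldases from 0.19 to 0.09 on the log2 scale. Its part in single values was not tested beyond this subtraction.

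Fold changes of the 11 members with an ERSE or ERSE-II ran from -0.13 for ERO1LB to 0.37 for HSPA5 by the authors' deposited table. Their median log2 fold change was 0.19 by the authors' deposited table, against 0.04 in the 26 members whose promoter held neither. Both H2O2 libraries stood above both controls in 7 of the 11 and below in none, and above in 8 and below in 6 of the 26, against 26.3% above and 25.6% below over all genes. None of the 11 passed the threshold, and MANF, the gene that did, held neither element as written in its window, which says nothing of other sites. Among the other genes of the table, 19 carried an ERSE or ERSE-II, none passed, and their median was 0.10 by the authors' deposited table, with 7 above and 2 below both controls (36.8% and 10.5%, against the same 26.3% and 25.6%). Less the length trend, the medians of the members with and without an element were 0.12 and 0.02. The sets also differed in level. The median of the mean normalized counts was 2566 for members with an element, 537 for members without and 413 for the other genes with one. The part of level in these counts and medians was not tested, nor was the difference between the sets.

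**Figure D4:**
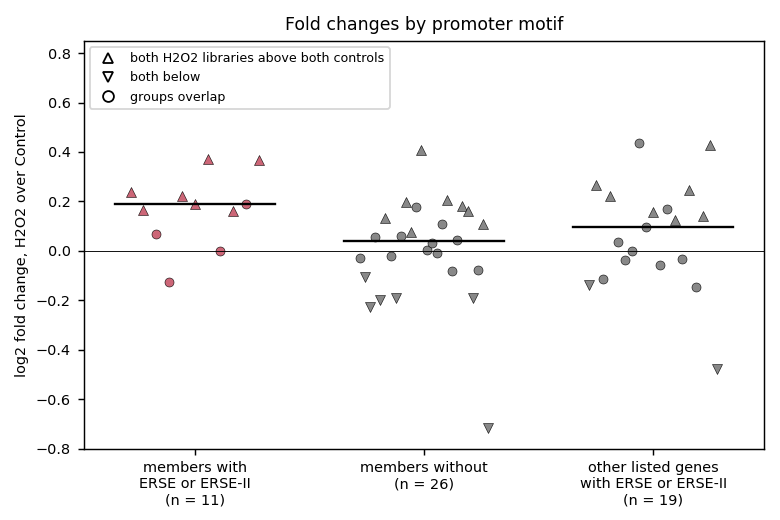
Log2 fold change by the authors' deposited table for members with an ERSE or ERSE-II, members without, and other listed genes with either element. Bars are medians (0.19, 0.04 and 0.10), upward triangles mark genes with both H2O2 libraries above both controls, downward triangles both below, and circles overlapping groups.

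Other ER genes, in 9 lists of 131 symbols of which 125 were listed, gave 4 genes called higher and 3 lower by the authors' deposited table, 3.20% and 2.40% of the 125, against 2.58% and 4.62% of all genes. The strongest rises were in the arm downstream of eIF2alpha phosphorylation, which PERK and other kinases share. DDIT3, encoding the transcription factor CHOP, went from 539.6 and 598 to 1247 and 1384 normalized counts, and PPP1R15A, encoding the phosphatase subunit GADD34, from 489 and 602 to 1088 and 1287. DDIT3 rose by 1.21 ± 0.11 and PPP1R15A by 1.12 ± 0.13 on the log2 scale (SE, limma, adjusted p = 2.76e-05 and 1.80e-04). Exons of other genes on the opposite strand overlap 31.6% of DDIT3's exonic bases. CHAC1, which encodes a glutathione-degrading enzyme, fell by 0.63 ± 0.16 (SE, limma, adjusted p = 0.0345), from 209 and 221 to 152 and 127 normalized counts, and did not pass without the deeper (adjusted p = 0.0545) or shallower (0.291) H2O2 library. The other 5 of 8 genes of this arm did not pass.

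Of 9 BiP cofactors, DNAJB9, a J-domain protein that represses IRE1, was the 1 gene called higher by the authors' deposited table (1.44-fold, adjusted p = 0.0407), with 174 and 126 normalized counts in Control and 223 and 210.1 with H2O2. The membrane-bound oxidoreductase gene TMX1 was the 1 of 10 further thiol oxidoreductases called higher there, at 1.36-fold by the authors' deposited table (adjusted p = 0.0436). Neither passed in limma (adjusted p = 0.0883 and 0.0645). FKBP11, a secretory prolyl isomerase, was the largest fall of these lists, from 286 and 316 to 100.4 and 133 normalized counts, by 1.37 ± 0.16 on the log2 scale (SE, limma, adjusted p = 2.94e-04), and the other 5 prolyl isomerases did not pass. Among 15 genes of N-glycan transfer and trimming, the mannosidase gene MAN1A2 was called lower at 0.746-fold by the authors' deposited table (adjusted p = 0.0330), and did not pass with limma (0.0822).

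No gene passed in the remaining 4 lists. The 2 smallest adjusted p-values by the authors' deposited table were 0.265 for CREB3L3 and 0.325 for NFYB among 14 other regulators. They were 0.104 for SPCS1 and 0.244 for SRP54 among 20 translocation and signal peptidase genes. Of 26 further degradation genes UBE2G2 and UFD1L came nearest, at 0.0753 and 0.221 by the authors' deposited table, both lower in value. Of 17 genes of ER export and retrieval, TMED2 and KDELR1 came nearest, at 0.160 and 0.320 by the authors' deposited table. The translocation and signal peptidase list had 18 of 20 values above 0 by the authors' deposited table, against 8191 of all 16376 genes. Its median was 0.17 by the authors' deposited table, close to that of the chaperones.

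**Figure D5:**
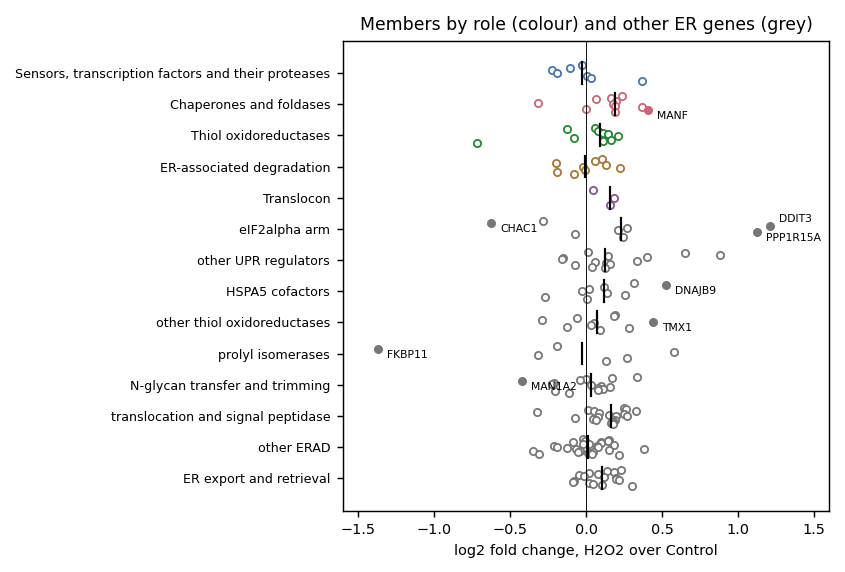
Log2 fold change by the authors' deposited table for the members by role (coloured) and for the other ER gene lists (grey), with filled and named points for adjusted p under 0.05 and black bars for medians. DDIT3 and PPP1R15A lie beyond 1 and FKBP11 beyond -1, while MANF is the 1 filled point among the members.

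Total counts over listed genes ran from 6858809 to 7365032 reads per library. All 6 colon epithelial markers were listed (EPCAM, KRT8, KRT18, KRT19, CDH1 and VIL1), with summed levels of 7391 and 8812 normalized counts in Control and 9248 and 8848 with H2O2. None of 3 goblet cell markers was listed, and of the plasma cell markers SDC1 alone was. Of 5 fibroblast markers COL1A1 and COL3A1 were listed, at 992 and 915 summed normalized counts in Control and 797 and 736 with H2O2, and of 5 leukocyte markers CD79A and CD14, at 4.79 and 5.13, then 40.5 and 30.2. The endothelial and erythroid lists had 1 listed gene each, at 13.5 summed normalized counts or fewer. The part of these markers in the results was not tested.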

How the data were processed

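RNA-seq was measured in 2 Control and 2 H2O2 samples. Per the submitters' processing notes the tools were DESeq, HTSeq, STAR, Trim Galore, FastQC and CASAVA 1.8, with build hg19 and no settings. The authors deposited 1 table: its mean columns hold a signal, counts divided by size factors and averaged per group, per the file headers. Its fold column is the ratio of group means, its log2 column the log2 of that ratio, and its p-value columns the authors' test with Benjamini-Hochberg adjustment, as deposited by the authors. The main call is that adjusted p under 0.05. Means below 5.46 are not analysed here.

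Whole counts of both libraries of a group were recovered from its mean (tolerance 1e-09). Exactly 1 solution existed for each of the 16376 genes per group, and the steps equalled median-of-ratios size factors to 2.18e-13. In a simulated group of 16376 genes, 100% of counts came out exactly. limma 3.58.1 in R 4.3.3, using trended variances, was run on log2(normalized count + 1) per library, a scale that understates changes of low genes. On simulated data (H2O2 against Control, 16376 genes) limma recovered 34% of 1.3-fold changes, 70% of 1.5-fold changes and 98% of 2-fold changes, and 7 of its 158 calls were false. The simulation gave all genes and both groups the same dispersion and changed only genes with a mean of at least 50. In the real libraries the median gap was 0.20 between the controls and 0.13 between the H2O2 libraries (log2 scale). These rates therefore need not hold for the real data. Unlabelled p-values are limma's. Having 2 libraries per group limits the precision.

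Exonic lengths, overlaps and shared words came from GENCODE release 29 (81.3% of genes matched, all 40 members), another build than the table's, and promoters from RefSeq (GRCh38.p14). The length trend was a lowess curve over genes with a mean of at least 50. The members and lists were chosen with earlier results of these data known. Every member was named. From each other list the genes past the threshold were named, or the 2 with the smallest adjusted p. Protein sequences were not used here.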

Additional observations from a re-analysis of the deposited data

How the results depend on the processing

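No paired analysis was possible because the table's columns carry no replicate numbers. The count of members called higher, 1, became 3 at an adjusted p under 0.1 (MANF, HSPA5 and XBP1; 3.57% of all genes) and 0 in limma with all libraries, with pseudocounts of 0.5 or 5, with a filter at a mean of 50, and scaled to total counts or the upper quartile. Leaving out each library gave 0 to 11 higher and 0 to 2 lower in limma, with the most without the shallower control, when 10.6% of all genes were called higher and 11.6% lower. Of the other ER genes, 4 higher became 2 in limma under each of those settings with all libraries, and leaving out each library gave 2 to 27 higher and 1 to 9 lower of 125, while 0.635% to 10.6% of all genes were higher and 1.1% to 11.6% lower in the same fits. The median of the members was 0.05 to 0.10 on the log2 scale under every alternative.

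Members with values near 0 changed sign. Leaving out each library in turn gave these ranges on the log2 scale: ATF6 (-0.11 to 0.058), MBTPS1 (-0.094 to 0.11), MBTPS2 (-0.066 to 0.13), HYOU1 (-0.030 to 0.032), CRELD2 (-0.012 to 0.15), P4HB (-0.036 to 0.27), PDIA5 (-0.17 to 0.016), ERO1L (-0.053 to 0.18), SYVN1 (-0.19 to 0.037), DERL2 (-0.0062 to 0.12), EDEM3 (-0.23 to 0.22) and OS9 (-0.065 to 0.052). Scaled to total counts, MBTPS1 (-0.0094) and HYOU1 (-0.015) changed sign, and scaled to the upper quartile EDEM3 (0.017) and OS9 (0.014). Less the length trend, ATF6 (0.067), EDEM2 (-0.025) and EDEM3 (0.072) changed sign. The cause was not tested. With 2 libraries per group the precision is limited, and the effect of depth was not tested.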
